A study of Mus musculus with 21 samples.

Results

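Among 270959 regions of open chromatin defined across 21 mouse ATAC-seq libraries, 1303 were occupied in all 9 siRNA-treated libraries of the medulloblastoma cell line VDR and in none of the 9 libraries of primary cerebellar cells. They are called line-only regions here. ATAC-seq uses a transposase to cut accessible DNA, and the deposited data give, for each library, its scored peak summits. The 100000 highest-scoring summits of each list were kept, regions of 500 bp were placed on them by rank, and a region was occupied in a library that had a kept summit inside it. The members were thus chosen from the values of 18 libraries, so their number and their occupancy and rank level in those libraries are given as descriptions, with no test. The occupancy of the 3 libraries of untreated VDR cells, the differences between the 3 treatments and the weaker summits of the primary lists were not used in the choice. The kept summits of all 21 libraries, with the untreated ones, did help to place the regions. The name line-only refers to kept summits alone. The whole primary lists held a summit in 1145 of the 1303 regions (87.9%), and 448 regions were occupied in no untreated library.

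Each of the 7 groups had 3 libraries, all made with the Omni-ATAC protocol. The primary groups were granule neuron progenitors (GNP) at postnatal day 7, hyperplasia at postnatal day 28 (titles PNC) and medulloblastoma tumor cells, with no age given for the last. All were sorted for EGFP from cerebella of Atoh1-EGFP mice. The GNP titles carry the prefix Ptch1, and no genotype is stated. VDR cells, a single mouse line, were untreated or received a control siRNA (siNC), an siRNA to Nfia (siNfia) or an siRNA to Nfib (siNfib). The deposited lists of these treatments are named with sh, not si, so the reagent is uncertain, and the level of the 2 target genes cannot be read from accessibility. The labels do not state that replicates were separate animals or cultures, so p-values measure only the spread between these libraries.

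Cerebellar granule neuron progenitors divide in response to Sonic hedgehog, and mice that lose the hedgehog receptor Ptch1 in these cells develop medulloblastoma. A line grown from a tumor has been selected in culture and need not share all accessible sites of the tissue. Nfia and Nfib are nuclear factor I transcription factors that bind a palindromic TTGGC motif and act in the maturation of granule neurons and glia.

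Of the 1303 line-only regions, 17 (1.3%) contained the whole stretch of 250 bases before a RefSeq transcript start, with 18 such stretches between them. The share was 2.84% over all regions and 16.6% over regions occupied in all 9 siRNA libraries and at least 1 primary library. Of the 17, the 6 of best mean rank over the siRNA libraries are printed below. They show promoters at which the line and the primary cells differed in their kept summits. Weaker summits of the whole primary lists lay in the regions at Nrtn (8 lists), Renbp (6), Camk1g (5) and Rnf144b (6), and in none of the 9 lists at Gm7967 and Zfp345. The sequences are from RefSeq on GRCm38.p6, the mm10 assembly, and run 5′ to 3′ on the strand of the gene. They lie at chr17:56757549-56757798 (Nrtn, minus strand), chr1:98589267-98589516 (Gm7967, plus), chrX:73930851-73931100 (Renbp, minus), chr1:193370283-193370532 (Camk1g, minus), chr13:47193753-47194002 (Rnf144b, plus) and chr2:150485064-150485313 (Zfp345, minus). Capitals mark matches, on either strand, to the E-box CAGCTG, to the SP motif GGGCGG or to the TEAD motif GGAATG. The SP and TEAD matches also appear as CCGCCC and as CATTCC, where they lie on the other strand. No capitals overlap another motif in these 6.

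Nrtn: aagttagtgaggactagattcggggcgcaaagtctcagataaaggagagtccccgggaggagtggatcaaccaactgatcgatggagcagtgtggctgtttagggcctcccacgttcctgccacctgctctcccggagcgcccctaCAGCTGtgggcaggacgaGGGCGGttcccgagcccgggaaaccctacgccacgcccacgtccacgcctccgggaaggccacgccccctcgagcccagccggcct
Gm7967: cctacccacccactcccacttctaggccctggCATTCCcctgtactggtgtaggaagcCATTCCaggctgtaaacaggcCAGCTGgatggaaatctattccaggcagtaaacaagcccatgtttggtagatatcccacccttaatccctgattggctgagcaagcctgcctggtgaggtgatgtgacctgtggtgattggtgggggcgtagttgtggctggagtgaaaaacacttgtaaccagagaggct
Renbp: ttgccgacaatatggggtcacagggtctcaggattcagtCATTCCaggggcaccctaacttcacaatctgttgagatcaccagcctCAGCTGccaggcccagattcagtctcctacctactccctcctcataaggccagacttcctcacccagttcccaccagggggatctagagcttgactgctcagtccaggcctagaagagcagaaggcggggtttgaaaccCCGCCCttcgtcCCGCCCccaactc
Camk1g: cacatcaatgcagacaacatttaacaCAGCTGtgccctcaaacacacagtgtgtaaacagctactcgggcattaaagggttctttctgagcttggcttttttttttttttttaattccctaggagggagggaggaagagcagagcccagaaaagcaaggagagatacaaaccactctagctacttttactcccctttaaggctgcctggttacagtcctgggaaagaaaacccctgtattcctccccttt
Rnf144b: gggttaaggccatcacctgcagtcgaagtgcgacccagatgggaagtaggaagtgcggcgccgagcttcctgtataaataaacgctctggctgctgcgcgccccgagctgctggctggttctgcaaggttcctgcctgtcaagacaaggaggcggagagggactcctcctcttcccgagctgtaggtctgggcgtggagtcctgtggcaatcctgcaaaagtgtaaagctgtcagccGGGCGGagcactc
Zfp345: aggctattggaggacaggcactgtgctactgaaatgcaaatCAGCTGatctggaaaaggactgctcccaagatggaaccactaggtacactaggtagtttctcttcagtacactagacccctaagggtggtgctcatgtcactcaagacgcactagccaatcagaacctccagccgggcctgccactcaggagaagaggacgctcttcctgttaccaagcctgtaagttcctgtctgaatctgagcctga

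The E-box CAGCTG, a site type of neuronal basic helix-loop-helix factors, was in 5 of these 6 and in 6 of the 18 line-only promoter stretches (33.3%), against 13.0% of all 32851 promoter stretches of that length. GGGCGG was in 7 of 18 (38.9%) against 32.7%, and GGAATG in 3 of 18 (16.7%) against 12.6%. The AP-1 motif TGANTCA was in 1 of 18 (5.56%) against 6.75%, and the NFI monomer motif TTGGCA in 1 of 18 (5.56%) against 12.3%. The palindromic NFI full site (0.0365% of all stretches), the GLI motif GACCACCCA (0.225%), the ETS motif CCGGAAG (6.91%) and the NRF1 motif (3.74%) had no match in the 18. With 18 stretches these shares are descriptions only.

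The deposited lists held 159720 to 279584 summits, and read depth is unknown. As a stand-in for signal, the score at rank 100000 ran from 9.26 to 28.9 in primary libraries, from 4.95 to 17.4 in siRNA-treated VDR libraries and from 3.76 to 3.97 in untreated VDR libraries. Scores were heavily tied: 2048 to 9249 summits shared the score at rank 100000 in primary lists, 2682 to 20502 in siRNA lists and 39690 to 54578 in untreated lists, and ties were ordered by position. All 8 granule lineage genes checked (Atoh1, Barhl1, Zic1, Zic2, Pax6, Neurod1, Mycn and Gli2) had occupied regions in every library. Their counts did not move one way. Neurod1 had 6 to 10 occupied regions in primary libraries and 2 to 4 in siRNA-treated ones, and Pax6 had 21 to 31 and 9 to 13. Atoh1 had 8 to 14 and 12 to 21, and Gli2 had 34 to 46 and 56 to 78. In untreated VDR libraries Gli2 had 333 to 389, Atoh1 8 to 10, Pax6 5 to 8, Zic1 2 to 4 and Neurod1 1 to 3. Ties were ordered by chromosome number and then position. The 9100 to 12662 tied summits kept at the cut of the untreated lists were thus taken from chromosome 1 first. Gli2 lies on chromosome 1, and the part of this order in its count was not tested. Microglial marker loci differed. Ptprc had 2 to 6 occupied regions in primary libraries and 1 to 3 in siRNA-treated ones, and Spi1 had 2 in each of these 18 libraries. In the same 18, Csf1r had 0, Cx3cr1 and Tmem119 had 0 to 1, and P2ry12 had 0 to 2. Untreated VDR libraries had 3 to 5 at Ptprc, 4 to 7 at Spi1, 1 to 2 at Csf1r and at Cx3cr1, 2 to 3 at Tmem119 and 0 at P2ry12.

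The absence of line-only regions from primary cells was an absence from the strongest 100000 summits, and only in part an absence from the whole lists. Some summit of the whole primary lists lay inside 1145 of the 1303 regions (87.9%), and 633 (48.6%) held one in at least 5 of the 9 primary libraries. There were 158 regions (12.1%) with no summit in any whole primary list, and 46 with one in all 9. The nearest kept primary summit lay a median of 2023 bp from the centre of a line-only region, with quartiles of 605 and 9619 bp. It lay more than 10 kb away for 317 regions (24.3%), of which 48 were also without any summit in the whole primary lists.

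At the edges of the rule, a member in Snx29 had rank 99999 in siNC 1 and a member in Il34 had rank 99836 in siNC 3. On the primary side, the member at chr1:193968487-193968986, with no gene within 100 kb, had rank 100024 in hyperplasia 3, and a member in LOC100504180 had rank 100054 in hyperplasia 1. Just outside, a region beside Cnep1r1 was left out through rank 99935 in GNP 1 and one in Opn3 through rank 99928 in hyperplasia 3. Regions in Ctbs and Kirrel3 missed by ranks of 100018 in siNfia 2 and 100020 in siNC 3. A further 1048 regions were occupied in 8 of the 9 siRNA libraries and no primary library, and 622 in all 9 siRNA libraries and exactly 1 primary library.

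The weaker primary summits inside line-only regions did not separate the stages beyond the spread between libraries. With every primary list shortened to the 195450 summits of the shortest, GNP 1, 2 and 3 held a summit past rank 100000 in 41.1%, 45.5% and 39.8% of line-only regions, hyperplasia libraries in 33.7%, 34.8% and 36.4%, and tumor libraries in 35.8%, 46.2% and 40.2%. The 3 hyperplasia values were below all GNP values, and the tumor values spanned both. Group means were 42.2% ± 2.97 for GNP, 35.0% ± 1.35 for hyperplasia and 40.7% ± 5.24 for tumor (SD, n = 3 libraries each, exact permutation test of the F statistic, p = 0.15; the smallest p this design allows is 0.00357). Tumor 1 and tumor 2 each decided this call: p was 0.0286 without tumor 1 and 0.0429 without tumor 2 by the same exact test. Over all 158264 regions without a kept primary summit, the means were 7.04%, 6.39% and 6.41% in the same order. Over the 1048 regions of 8 siRNA libraries and no primary library, they were 39.6%, 34.7% and 37.9%, near those of line-only regions.

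In each of the 3 untreated VDR libraries, the occupied share of line-only regions lay between those of regions shared with primary cells and of regions seen in primary cells alone. The 3 untreated libraries had a kept summit in 41.4%, 33.1% and 44.1% of them, a mean of 39.5% ± 5.76 (SD, n = 3 libraries). For the 31679 regions occupied in all 9 siRNA libraries and at least 1 primary library, called shared regions below, the values were 75.1%, 66.3% and 78.8% (73.4% ± 6.44). For the 4344 regions of all 9 primary and no siRNA-treated library they were 6.15%, 5.34% and 6.22% (5.9% ± 0.486). Over all 270959 regions the mean was 29.8% ± 0.181. The shared and primary-only sets were themselves defined by occupancy in the siRNA libraries. Of the line-only regions, 214 were occupied in all 3 untreated libraries, 263 in 2, 378 in 1 and 448 in none. With the summits tied at rank 100000 left out, an alternative added after the data were seen, the line-only share was 39.5% ± 5.04. No test was made, since the rule used the occupancy of every other group of libraries, and the part of the lower scores of the untreated lists in these shares was not tested.

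**Figure D1:**
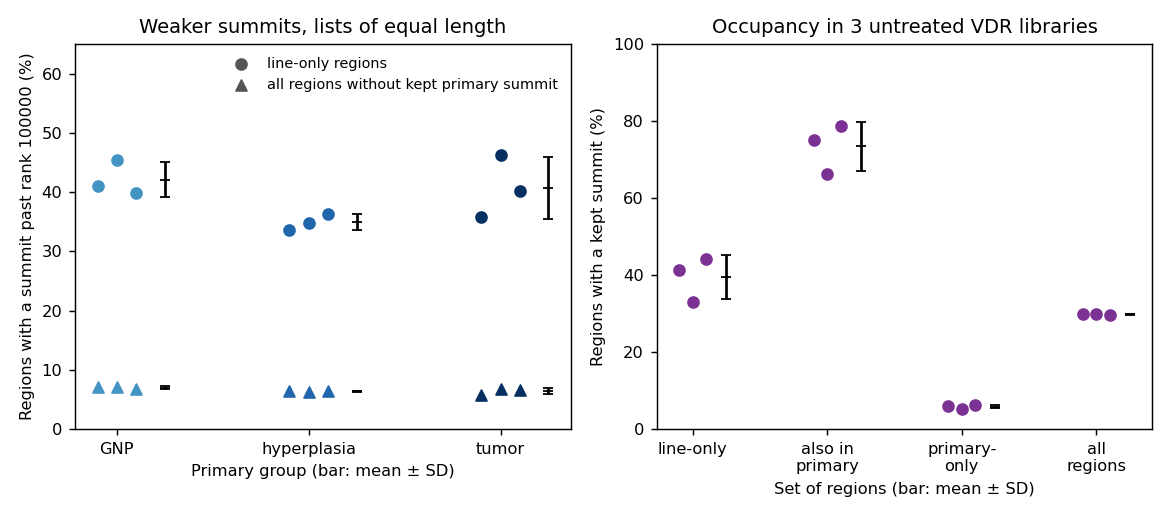
Left: the percentage of regions with a summit past rank 100000 in each primary library, with lists of equal length, for line-only regions (circles) and all regions without a kept primary summit (triangles). Right: the percentage of line-only, shared, primary-only and all regions with a kept summit in each of the 3 untreated VDR libraries; points are libraries, bars give mean ± SD. On the left the hyperplasia circles have the lowest mean, with the circle of tumor 1 in their range. On the right line-only regions lie between 33.1% and 44.1%.

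The shares of line-only regions near a gene end and far from any gene were near those of all regions, while shared regions lay closer to gene ends. Fewer line-only regions than of all regions lay in gene bodies, and more lay beside genes. Of the 1303, 142 (10.9%, Wilson 95% interval 9.32 to 12.7) were within 1 kb of either end of a protein-coding gene, against 37.6% of shared regions, 15.6% of primary-only regions and 11.9% of all regions. Gene bodies held 619 of them (47.5%), against 56.9% of shared, 57.5% of primary-only and 56.0% of all regions. Outside gene bodies but within 100 kb of a gene lay 549 (42.1%), against 37.3% of shared, 27.8% of primary-only and 33.1% of all regions. No gene lay within 100 kb of 135 (10.4%), against 5.78% of shared, 14.7% of primary-only and 10.9% of all regions. The median distance to the nearest RefSeq transcript start was 20913 bp for line-only, 20324 bp for all, 24628 bp for primary-only and 7075 bp for shared regions. The intervals cover the counting of regions only, and regions are not replicates.

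Chromosomes 1, 4, 6, 8, 15 and 17, picked after the counts were seen, held 853 of the 1303 line-only regions (65.5%, Wilson 95% interval 62.8 to 68.0). They held 40.4% of shared regions, 27.8% of primary-only regions and 49.7% of all regions. Chromosome 1 had 175 line-only regions, chromosome 6 had 161, chromosome 4 had 146, chromosome 15 had 145, chromosome 8 had 125 and chromosome 17 had 101. No other chromosome had more than the 48 of chromosome 12. Of all regions occupied in the 9 siRNA libraries, line-only regions made up 6.25% on these 6 chromosomes and 2.33% on the others. Chromosome X had 33 line-only regions, 6.51% of its regions occupied in the 9 siRNA libraries.

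The same 6 chromosomes carried a larger share of every VDR list. Of the kept summits, 32.4% to 34.0% lay on them in the 9 primary libraries, 40.8% to 45.3% in the siRNA-treated libraries and 53.1% to 59.2% in the untreated VDR libraries. In the whole lists, before any limit on rank, the ranges were 32.6% to 34.6%, 45.1% to 50.1% and 52.9% to 58.8%. The primary and VDR ranges did not overlap. The 6 chromosomes were picked from members chosen by occupancy in the primary and siRNA-treated lists, so the difference between these lists is a description. Only the untreated lists had no part in that occupancy. In untreated VDR cells, line-only regions on the 6 chromosomes were occupied in 43.2% ± 5.03 of cases and those on other chromosomes in 32.7% ± 7.15 (SD, n = 3 libraries). The same split was 76.7% and 71.1% for shared regions and 32.8% and 26.8% for all regions. DNA copy number was not measured, and its part in these shares was not tested.

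**Figure D2:**
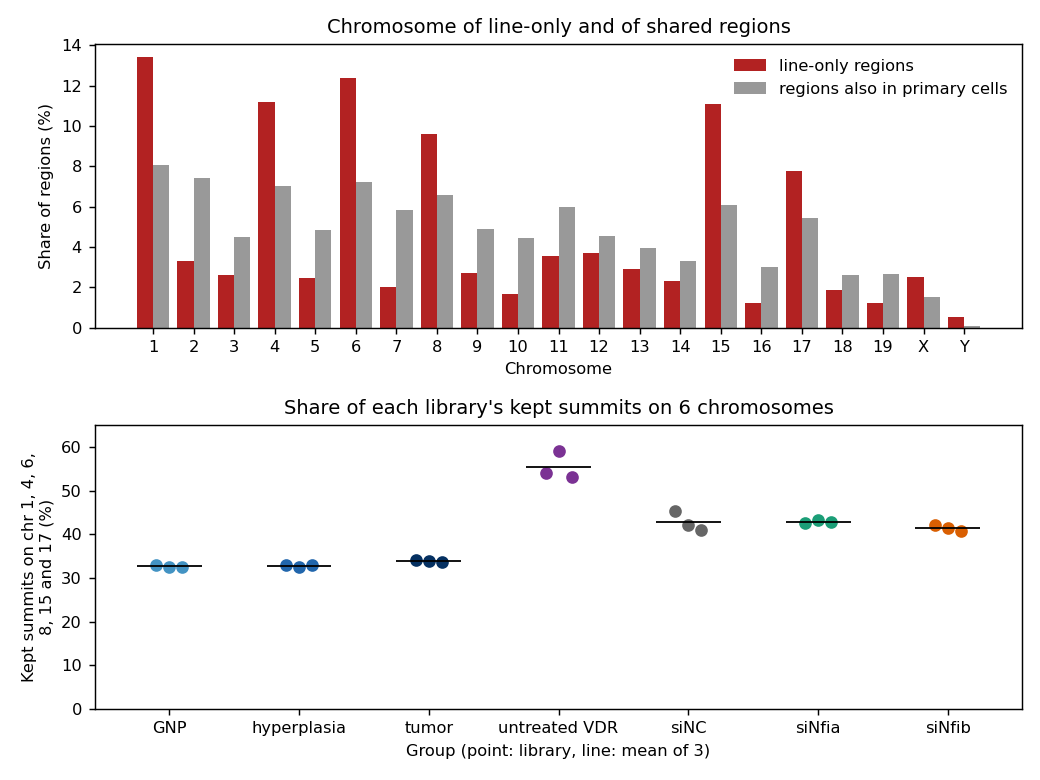
Top: the percentage of line-only regions (red) and of shared regions (grey) on each chromosome. Bottom: the percentage of each library's kept summits on chromosomes 1, 4, 6, 8, 15 and 17 by group, with points for libraries and lines for means. Red exceeds grey on those 6 chromosomes and on X and Y, and VDR libraries lie above the primary range of 32.4% to 34.0%.

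Line-only regions were weaker than shared regions in the line itself. Rank 1 is the strongest summit of a list. The mean rank of a line-only region over the 9 siRNA libraries had a median of 45942 (quartiles 33883 and 55314), and it ran from 961 to 80546. Shared regions had a median of 24728. In siNC 1, 2 and 3 the median ranks of the line-only regions were 43018, 43952 and 45410, in siNfia 38184, 38521 and 37525, and in siNfib 44545, 43894 and 45525. All 3 siNfia values were stronger than the other 6. Summits from peaks with several summits made up 40.3% to 79.4% of those inside line-only regions and 59.7% to 89.5% of those inside shared regions. Over all kept summits of the same libraries the share was 41.9% to 81.7%, near that of line-only regions.

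The strongest line-only region lay 2182 bp from Eapp, which codes for an E2F-associated phosphoprotein, at chr12:54697832-54698331. Its ranks were 1683, 831 and 1873 in siNC, 881, 728 and 1332 in siNfia and 507, 168 and 649 in siNfib. All 3 siNfib libraries ranked it above every other library, and the difference from siNC on the scale log2(100000/rank) was 1.86 ± 0.56 (SE, limma adjusted p = 0.0265). It was occupied in 1 of 3 untreated libraries, at rank 16510, and 4 whole primary lists held a summit in it, the best at rank 117638.

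The region in Dennd5b, which codes for a DENN-domain protein of vesicle traffic, had ranks of 3362, 1372 and 3027 in siNC, 977, 295 and 846 in siNfia and 1319, 1804 and 1144 in siNfib. It was stronger in siNfia than in siNC by 1.95 ± 0.56 (SE, limma adjusted p = 0.047). All 3 untreated libraries held it, at ranks of 24598, 5706 and 11539. The other 10 of the 12 strongest regions lay beside Igdcc3 (2 regions), Mreg, Kif2c, Alyref2, Etfbkmt, Tubb3 (2 regions), Arl4d and Pxn, with mean ranks of 4038 to 6744. Kif2c codes for a microtubule-depolymerizing kinesin of mitosis, Tubb3 for a neuronal beta-tubulin and Pxn for the focal adhesion adaptor paxillin. None of these 10 passed the test of siNfia or siNfib against siNC.

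**Figure D3:**
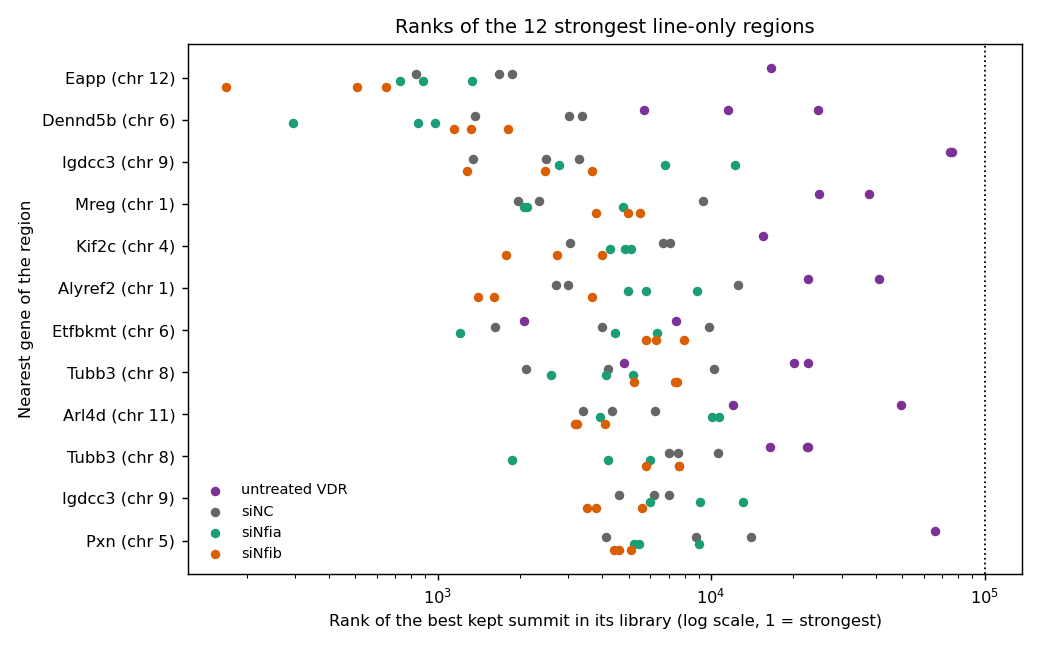
Rank of the best kept summit (log axis, 1 is strongest) of the 12 strongest line-only regions in untreated VDR (purple), siNC (grey), siNfia (green) and siNfib (orange) libraries; a missing point is a library without a kept summit, which occurs only for untreated VDR, and the dotted line is rank 100000. The untreated points lie to the right of most treated ones, and the Eapp region reaches rank 168 in siNfib 2.

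Several of the strongest line-only regions were neighbours in dense runs. Joining members less than 2 kb apart gave 1215 runs, of which 1152 had 1 member, 49 had 2 and 14 had 3 or more. The longest run had 10 regions within 7.05 kb at chr8:123426647-123433695, between Tubb3 and Def8. None of its 10 regions had a summit in any whole primary list, 8 were occupied in at least 1 untreated library, and their mean ranks ran from 5394 to 42059. The next runs were 5 regions in Rdm1 on chromosome 11, 4 beside Alyref2 on chromosome 1 and 4 beside Eapp on chromosome 12. Rdm1 codes for a RAD52-related protein and Alyref2 for an mRNA export factor. Of the 5 regions at Rdm1, 4 were absent from all whole primary lists, of the 4 beside Alyref2, 2, and of the 4 beside Eapp, 3.

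Protein-coding genes were assigned 1168 of the line-only regions, by the gene body that held the centre or else the nearest within 100 kb. They belonged to 901 genes, of which 739 had 1 region. Adamtsl1, which codes for a secreted matrix glycoprotein, and Tubb3 had 8 each, and Gm52481, Pecr, Rdm1 and Tex14 had 7 each. Dennd5b and Msn had 6 each, and Igdcc3, Mpdz and Mreg had 5 each. Pecr codes for a peroxisomal reductase, Tex14 for a protein of germ cell bridges, Msn for the membrane-cytoskeleton linker moesin and Mpdz for a tight junction scaffold. All 7 regions of Tex14 lay in its gene body and had no summit in any whole primary list. All 7 of Gm52481 lay on chromosome Y, which had 7 line-only regions among 24 occupied in all siRNA libraries, and how reads in repeated sequence were placed there was not stated.

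The windows of 1 Mb with most line-only regions were chr1:72000001-73000000 with 13 (Mreg, Pecr and Rpl37a), chr6:146000001-147000000 with 11 (Itpr2 and Stk38l among others), chr6:148000001-149000000 with 11 (Dennd5b, Far2, Sinhcaf and Tmtc1), chr8:123000001-124000000 with 11 (Def8, Tubb3 and Zfp276) and chr11:101000001-102000000 with 11 (Arl4d, Ifi35 and Rdm1). They held 51, 39, 38, 58 and 59 regions occupied in all siRNA libraries, in the same order.

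Genes of known roles in this tissue, in 20 lists, took 35 of the 1303 line-only regions (2.69%), a share near the 2.72% of shared regions and 3.05% of all regions. The NFI family had 4, of which 3 were at Nfib and 1 in Nfia. None of these 4 passed a test between treatments. The region in Nfia had ranks of 61810, 44937 and 66318 in siNC, 53385, 86278 and 79191 in siNfia and 57200, 92327 and 66805 in siNfib, which overlapped throughout. The Hedgehog pathway list had 2, both at Gli2, an effector of the pathway, and its other 18 genes had none. Granule progenitor factors had 2, both beside Zic4.

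Among granule neuron differentiation genes, 8 line-only regions lay beside Tubb3, and 1 of these 8 passed the test of siNfia against siNC. Integrin and focal adhesion genes had 3 (Pxn and 2 at Ptk2, the focal adhesion kinase gene). Hox genes had 2, both at Hoxc4, and collagen, matrix and mesenchyme markers had 2, both beside Prrx1. Selectors of non-granule lineages had 1 each at Foxa1 and Foxd1. The tumour suppressor list had 1 in Cdkn2c, an inhibitor of cyclin-dependent kinases, and Rora and Cdh5 gave 1 each to the Purkinje and endothelial lists. The lists of TGF-beta and BMP pathway genes, neural stem and astrocyte, oligodendrocyte, microglia and immune, and neural crest markers, and chromatin regulators had 0.

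Knockdown of Nfia was compared with the control siRNA on log2(100000/rank), where a positive difference means a stronger rank with siNfia, in 1 limma fit over all 32982 regions occupied in the 9 siRNA libraries. Of the 1303 line-only regions, 71 became stronger (5.45%) and 9 weaker (0.691%) at a Benjamini-Hochberg adjusted p under 0.05. Among all regions tested 1.29% became stronger and 1.22% weaker. The median difference was 0.19 for line-only regions and -0.02 for all regions tested, and 830 line-only regions (63.7%) had a positive difference against 48.6% of all tested. The median was 0.19 both on the 6 chromosomes named above and on the others. The number called rested partly on siNC 3 and siNfia 3: without them it was 50 (44 stronger, 6 weaker) and 48 (44 and 4). The shares of all regions tested fell as well. Without siNC 3, 3.16% of line-only regions were stronger against 0.77% of all tested, and 0.431% weaker against 0.806%. Without siNfia 3 the shares were 3.24% against 0.885% and 0.295% against 0.73%. A region had to stay within the 100000 kept summits in all 9 libraries to be a member, which limits how far it could weaken, and the part of the lower rank level of line-only regions in this result was not tested.

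The most strengthened line-only region with siNfia lay in Eda2r, the gene of a receptor for ectodysplasin A2, at chrX:97360855-97361354. Its ranks were 23662, 27076 and 29453 in siNC and 896, 3280 and 3195 in siNfia, so the groups did not overlap, a difference of 3.66 ± 0.55 (SE, limma adjusted p = 0.000133). All 3 untreated libraries held it, at ranks of 10529, 18771 and 6085. A region on chromosome 15 with no gene within 100 kb, chr15:16491176-16491675, had ranks of 25668, 19411 and 14792 in siNC and 3313, 2502 and 1110 in siNfia (3.22 ± 0.53, limma adjusted p = 0.000286). It was not occupied in any untreated library.

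The next were 2 further gene-poor sites of chromosome 15, chr15:70425579-70426078 (3.06) and chr15:62673390-62673889 (2.88), and regions in Tm9sf2 (3.02), which codes for a membrane protein of the endosomal and Golgi system, and Iqcm (2.83). The Iqcm region had ranks of 75672, 63164 and 93570 in siNC and of 13376, 5936 and 15622 in siNfia, with no overlap. The 1 region of the AP-1 list, 6578 bp from Atf3, a stress-response factor, ranked 70136, 88551 and 37931 in siNC, 15912, 8824 and 8681 in siNfia and 44361, 45203 and 25500 in siNfib. Its siNfia ranks were all stronger than the other 6, a difference from siNC of 2.53 ± 0.43 (SE, limma adjusted p = 0.000424).

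Of the 6 regions of Msn, 3 became stronger with siNfia, and the differences of the 6 ran from -0.29 to 1.73. The 8 regions beside Tubb3 all had positive differences, from 0.12 to 1.89, with 1 past the test. The 8 of Adamtsl1 ran from -0.77 to 2.37, also with 1 past it.

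The largest weakening with siNfia among line-only regions was in Zfhx3, the gene of a zinc finger homeobox factor, at chr8:108495423-108495922. Its ranks were 9900, 34343 and 24665 in siNC and 65784, 90025 and 93883 in siNfia (-2.02 ± 0.38, SE, limma adjusted p = 0.00182). The next were regions in Odf2 (-1.83), which codes for a centrosomal protein, and Robo2 (-1.82), a receptor of Slit guidance cues. The region chr1:193968487-193968986 (-1.68), one beside Pnck (-1.54), a calmodulin-dependent kinase gene, and one beside Ndufa10 (-1.41), a gene of respiratory complex I, completed the 6. Each of these last 5 calls was lost when a single siNC or siNfia library was left out, with limma adjusted p up to 0.129 for Odf2, 0.121 for Robo2, 0.136 for the chromosome 1 region, 0.0756 for Pnck and 0.124 for Ndufa10.

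**Figure D4:**
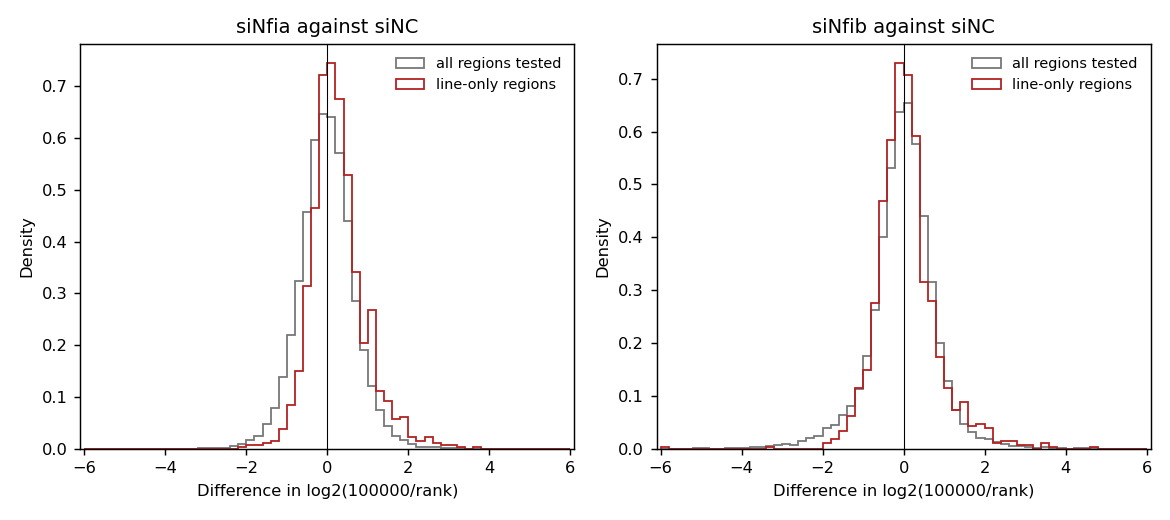
Distribution of the difference in log2(100000/rank) for siNfia (left) and siNfib (right) against siNC, for line-only regions (red) and all 32982 regions tested (grey); the axes are the difference and its density. With siNfia the red curve lies to the right of the grey one (medians 0.19 and -0.02), and with siNfib both have a median of 0.02.

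Knockdown of Nfib gave line-only regions changed in both directions. Against siNC, 89 became stronger (6.83%) and 35 weaker (2.69%), while of all regions tested 3.37% became stronger and 5.27% weaker. The median difference was 0.02 for line-only regions and 0.02 for all regions tested. Leaving out siNfib 1 or siNfib 2 lowered the 124 calls to 82 (61 stronger, 21 weaker) and 77 (59 and 18). Without siNfib 1, 4.39% of line-only regions were stronger against 2.14% of all tested, and 1.51% weaker against 3.51%. Without siNfib 2 the shares were 4.24% against 2.15% and 1.29% against 3.6%. In the fit over regions occupied in all 3 libraries of at least 1 treatment, 84 line-only regions (6.45%) were stronger against 8.32% of all regions of that fit, so the share of stronger line-only regions was above that of all regions in one fit and below it in the other. The siNfia and siNfib comparisons share the siNC libraries.

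The largest change among line-only regions with siNfib was a loss of strength 16337 bp from Six2, a homeobox gene known from kidney progenitors, at chr17:85704342-85704841. Its ranks were 618, 1401 and 1548 in siNC, 950, 1738 and 748 in siNfia, and 62561, 55565 and 75772 in siNfib. The siNfib libraries thus stood apart from the other 6, which overlapped each other. The difference from siNC was -5.86 ± 0.53 (SE, limma adjusted p = 2.72e-10) with siNfib and 0.04 ± 0.53 (limma adjusted p = 0.983) with siNfia, and siNfib against siNfia gave -5.90 ± 0.53 (limma adjusted p = 1.05e-10). The untreated libraries ranked it 3476, 55746 and 3041, and 8 whole primary lists held a weaker summit there, the best at rank 124345.

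A region in Nos1ap, the gene of an adaptor of neuronal nitric oxide synthase, had ranks of 3005, 7383 and 10101 in siNC and 74537, 45174 and 62404 in siNfib (-3.29 ± 0.48, SE, limma adjusted p = 4.21e-06). Its siNfia ranks of 10712, 8220 and 16054 overlapped siNC. A region in Zfhx3 (-1.86), one 53 bp from Mettl21e (-1.98) and one 86514 bp from Lmo7 (-1.69) were also among the most weakened. The Zfhx3 region ranked 81405, 60484 and 82287 with siNfib, and the siNfib and siNfia ranks overlapped. The 1 region of the Hippo list, in Tead3, the gene of a DNA-binding partner of YAP, ranked 23414, 28744 and 41015 in siNC and 69729, 84275 and 79197 in siNfib, a difference of -1.36 ± 0.37 (SE, limma adjusted p = 0.013).

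The most strengthened line-only region with siNfib was again that in Eda2r, with siNfib ranks of 1391, 602 and 1093, a difference from siNC of 4.78 ± 0.55 (SE, limma adjusted p = 4.53e-08). It was followed by chr4:71485144-71485643, with no gene within 100 kb (3.80), chr15:16491176-16491675 (3.57), and regions beside Sel1l (3.51) and in Armc6 (3.45) and Rarb (3.13). Sel1l acts in the degradation of proteins from the endoplasmic reticulum, and Rarb is a retinoic acid receptor. The Sel1l region ranked 66337, 54391 and 89258 in siNC, 74345, 46259 and 35515 in siNfia, and 6423, 5112 and 6626 in siNfib, so that siNfib stood apart from both other groups. The Rarb region ranked 97780, 85677 and 64754 in siNC, 51153, 27098 and 25166 in siNfia and 7117, 10389 and 10867 in siNfib, with no overlap between any 2 groups. A region 88471 bp from Myc, the 1 member of the cell cycle list, had a difference of 1.41 (limma adjusted p = 0.00379), with no summit in any whole primary list.

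**Figure D5:**
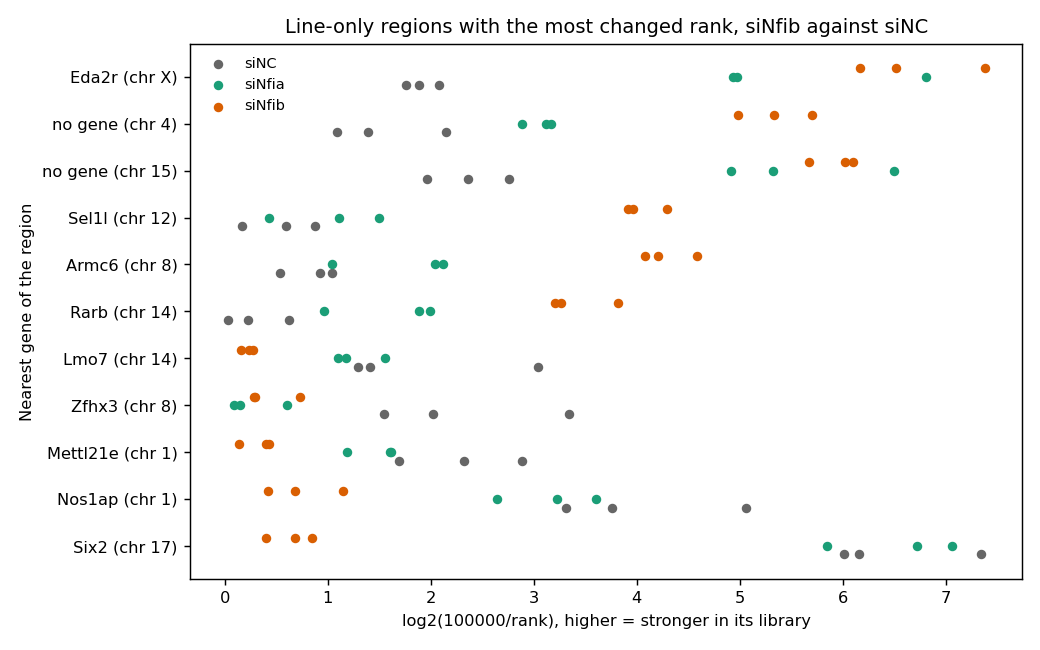
Values of log2(100000/rank) in each siNC (grey), siNfia (green) and siNfib (orange) library for the 6 most strengthened and 5 of the most weakened line-only regions with siNfib against siNC; higher is stronger. The siNfib points of the region beside Six2 lie below 1 while its other 6 points lie above 5, and those of the Eda2r region lie above 6.

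Set directly against siNfia, siNfib libraries had 59 line-only regions stronger (4.53%) and 124 weaker (9.52%), where 4.42% and 5.82% of all regions tested were stronger and weaker. The median difference was -0.16 for line-only regions and 0.04 for all regions tested, and 516 line-only regions (39.6%) had a positive difference against 52.4% of all tested. Without siNfib 2 or siNfib 3 the 183 calls became 121 (40 stronger, 81 weaker) and 117 (43 and 74). Without siNfib 2, 2.88% of line-only regions were stronger against 2.71% of all tested, and 5.82% weaker against 4.01%. Without siNfib 3 the shares were 3.19% against 2.84% and 5.49% against 3.87%. In the fit over regions occupied in all 3 libraries of at least 1 treatment, 4.37% of line-only regions were stronger against 9.33% of all regions of that fit. In that fit 8.67% of line-only regions were weaker against 7.12%. As above, it also held regions without a kept summit in some libraries, which line-only regions are not.

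After the region beside Six2, the line-only regions most weakened in siNfib relative to siNfia were chr15:70425579-70426078 (-4.21), which ranked 14606, 28569 and 12839 in siNC, 1461, 2509 and 2504 in siNfia, and 32092, 49540 and 36755 in siNfib, and a region in N4bp1 (-4.13), which ranked 24844, 8446 and 18898, then 1760, 1466 and 5709, then 52310, 48666 and 31298. In both, siNfia libraries were the strongest of the 3 groups and siNfib libraries the weakest, with no overlap. A region beside Sh3bp4 (-3.03), an endocytic adaptor gene, and one in Adamtsl1 (-2.89) were also among them. The most strengthened were regions beside Jak1 (3.28), a cytokine receptor kinase gene, and Sel1l (3.04) and in 6430548M08Rik (2.84), Dach1 (2.80), Armc6 (2.56) and Tex14 (2.48). The Jak1 region ranked 4711, 6753 and 7697 with siNfib and between 29841 and 75431 in the other 6 libraries. Of the 7 regions in Tex14, 3 were stronger with siNfib than with siNfia and none weaker.

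The promoters printed above differed in their response. The region at Camk1g, the gene of a calmodulin-dependent kinase of neurons, ranked 60283, 33357 and 56769 in siNC, 18279, 12784 and 7944 in siNfia and 8826, 10948 and 13612 in siNfib. Both knockdown groups were stronger than every control library, by 1.98 ± 0.45 with siNfia (SE, limma adjusted p = 0.00965) and 2.15 ± 0.45 with siNfib (limma adjusted p = 0.000965). It was also among the stronger regions of the untreated libraries, at ranks of 6561, 1872 and 3119. The region at the predicted gene Gm7967 had untreated ranks of 1959, 863 and 1223, ahead of its 9 siRNA-library ranks of 6190 to 26208, and no summit in any whole primary list. The regions at Nrtn, the gene of the growth factor neurturin, Renbp, Rnf144b, a ubiquitin ligase gene, Zfp345 and Gm7967 passed no test between treatments, with limma differences from siNC of -0.74 to 1.13. The Zfp345 region was occupied in 1 untreated library, at rank 97265, and in no whole primary list.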

How the data were processed

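Omni-ATAC libraries of 21 samples in 7 groups were analysed from the deposited summit lists. Reads were processed with Bowtie2, Picard and MACS2 on mm10, per the submitters' processing notes, with versions and parameters not given in the sources used here. The authors deposited each summit with a score on the −log10 scale, from a p-value or a q-value (which of them is not stated), and this score was used only to rank summits within a list.

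The 100000 highest-scoring summits of each list were kept, with ties ordered by position, and merged into regions of 500 bp. The rank of a library's best kept summit in a region was analysed as log2(100000/rank) with limma 3.58.1 in R 4.3.3, with trended variance, over 32982 regions and the 9 siRNA libraries, and Benjamini-Hochberg adjustment over all of them. The fit was tested on simulated ranks. Stages were compared with an exact permutation test (Python 3.11.15, SciPy 1.17.1). Read depth is unknown. Genes came from RefSeq (GRCm38.p6, 21883 protein-coding genes).

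Named were the 12 regions of best mean rank, the 12 genes with most regions, up to 4 regions per gene list, up to 6 per direction in each comparison by size among those called, 6 promoters, the regions nearest the limits of the rule and the 5 densest windows; a few of these genes are not reported here. Members and lists were chosen with earlier results of these data known. Motif shares were computed for promoters only. Alternatives covered the number of summits kept, a score minimum, region width, summit position, ties, each library left out, the rank transform, the libraries in the fit, the variance trend and a replicate block.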

Additional observations from a re-analysis of the deposited data

How the results depend on the processing

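Read depth is unknown, so a weak summit missing from a list may be undetected rather than absent. With no primary kept summit within 1000 bp of the centre, 818 regions met the rule, and 158 were absent from whole primary lists. Occupancy in untreated cells was 51.9% with 50000 summits kept and 29.6% with a score of at least 5. The share within 1 kb of a gene end was 13.7% with 50000 kept and 6.79% with regions of 1000 bp. Treatment calls, 80 with siNfia against siNC, became 40 with an inverse normal transform of rank, 45 with the 2 groups fitted alone and 48 over regions occupied in all 3 libraries of at least 1 treatment. The stronger shares of line-only regions in these 3 fits were 2.92%, 3.3% and 3.45%, against 0.652%, 0.609% and 1.57% of all regions of the fit. The weaker shares were 0.153%, 0.153% and 0.23%, against 0.682%, 0.521% and 1.26%. The 124 calls of siNfib against siNC became 80 with 50000 summits kept and 77 with summits within 100 bp of the centre, and the 183 of siNfib against siNfia became 112 with 50000 kept. For siNfib against siNC the stronger shares were 4.8% against 2.71% of all tested and 5.74% against 3.18%. The weaker shares were 2.06% against 4.06% and 2.01% against 4.91%. For siNfib against siNfia, 2.74% were stronger against 3.64%, and 6.86% weaker against 4.73%. Outside the 6 chromosomes, an alternative added after the data were seen, the calls were 32, 53 and 67 in that order, of 450 line-only regions there against 1303 in all. There 6.0%, 8.89% and 6.22% of line-only regions were stronger, against 0.858%, 2.77% and 3.75% of the other tested regions there. Weaker were 1.11%, 2.89% and 8.67%, against 0.943%, 4.37% and 4.72%.

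Leaving out each library in turn gave 1349 to 1610 members, 36.8% to 42.8% untreated occupancy, 10.8% to 11.8% near a gene end and 64.2% to 65.7% on the 6 chromosomes. It gave stage p-values of 0.0286 to 0.257 (exact permutation test), and 48 to 87, 77 to 142 and 117 to 247 calls for siNfia against siNC, siNfib against siNC and siNfib against siNfia. At the lowest counts the called shares of all regions tested, given with each comparison above, were also below those of the main fit. The 36 differences named for their size in a comparison all kept their direction, and 31 kept their call, in every setting in which they could be fitted. Calls named for other reasons, such as those of Eapp, Dennd5b, Atf3, Tead3, Myc and Camk1g, were not among the 36. Leaving out tied summits at rank 100000, keeping all of them, or giving ties their mean rank, added after the data were seen, moved no total by over 1.5 times, though the 9 regions weaker with siNfia became 5 with all ties kept.

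Libraries of different treatments share replicate numbers, but same-numbered libraries did not deviate together strongly (r of 0.003 to 0.049 in 9 pairs, against -0.028 to 0.009 in 18 differently numbered pairs), although all 9 correlated best with a library of their own number. With the replicate block the calls were 85, 124 and 189. The stronger shares of line-only regions were then 5.83%, 6.91% and 4.76%, against 1.38%, 3.5% and 4.59% of all tested. The weaker shares were 0.691%, 2.61% and 9.75%, against 1.33%, 5.41% and 6.05%.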

Other observations

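The 158 line-only regions without a summit in any whole primary list included 93 on chromosomes 1, 4, 6, 8, 15 and 17. Their mean occupancy in the 3 untreated VDR libraries was 33.1%. Of the 317 line-only regions more than 10 kb from a kept primary summit, 201 (63.4%) lay on these 6 chromosomes. Among the runs of neighbouring members, all 3 regions beside Pecr on chromosome 1 and all 3 beside Arl4d on chromosome 11 were without a summit in any whole primary list. By contrast, none of the 3 regions in Bhlhe41, the gene of a basic helix-loop-helix repressor, was absent from these lists, and each of the 9 primary libraries held a weaker summit in at least 1 of them. The 3 regions in Fer1l6 lay 11028 to 12811 bp from the nearest kept primary summit, yet 7 primary libraries held a weaker summit in at least 1 of them.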
